A study of Mus musculus with 24 samples.

Results

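Accessible chromatin of epidermal stem cells (EpdSCs) was compared before induction of SOX9 (D0) and after 6 weeks of it (W6), the last time point taken from intact rather than grafted skin. All peaks of the D0 and W6 lists that overlapped by at least 1 bp were merged, and each merged region was placed in 1 of 3 classes, with a peak at D0 alone, at W6 alone or at both. The merge gave 85858 regions, against 98198 when the 5 in vivo lists were merged together. The lists stand for 4 of the 24 ATAC-seq samples of the series, 2 biological replicates at each time.

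ATAC-seq marks open chromatin by the insertion of sequencing adapters by the Tn5 transposase. Both groups were male CD1 mice of the genotype K14rtTA; TRE-myc-Sox9, in which the Krt14 promoter drives the doxycycline (DOX)-dependent activator rtTA in basal keratinocytes and the activator switches on a Myc-tagged Sox9. D0 mice were at postnatal day 21 and had no DOX. W6 mice were at postnatal day 63, were injected with DOX at postnatal day 21 and then fed it for 6 weeks. Cells of back skin were sorted as negative for CD31, CD45, CD117 and CD140a, high for CD49f, negative for CD34 and high for Ly6A. Per the study's methods each replicate pooled several mice, and the authors joined the reads of both replicates before calling peaks, so that each group is 1 list. No spread between replicates could therefore be had and no comparison below carries a p-value. No list of uninduced mice at postnatal day 63 was used here, so that weeks of SOX9 and age of the mice cannot be told apart. In such bulk lists a smaller share of cells with an open site and less opening per cell cannot be told apart either.

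SOX9 is an HMG-box factor that bends DNA and specifies hair follicle stem cells (HFSCs), while adult EpdSCs of the interfollicular epidermis normally lack it. Pioneer factors of this kind can bind sites wrapped around nucleosomes and open them. SOX proteins read ACAAT cores, AP1 (FOS and JUN dimers) reads TGACTCA or TGAGTCA, RUNX factors read TGTGGT, and GATA factors, of which GATA3 acts in epidermal differentiation, read AGATAA.

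The sequences that follow carry the main contrast between the classes and were read from the GRCm38 reference, plus strand, 120 bases each. The first set holds SOX words (ACAATGG or ACAATAG on either strand) in W6-only regions. It was taken from the highest-scoring such regions outside annotated exons, which lay nearest to the transcription start sites (TSSs) of Efna5 (chr17:61281270-61281389, intergenic), Trib2 (chr12:16168009-16168128, intergenic) and Bcl2l14 (chr6:134329792-134329911, in an intron of 4933406J09Rik), and from an intron of Trp63 (chr16:25844623-25844742), the gene of the basal keratinocyte factor p63. Capitals mark every match to the SOX, AP1, RUNX or GATA words.
Efna5 W6-only region: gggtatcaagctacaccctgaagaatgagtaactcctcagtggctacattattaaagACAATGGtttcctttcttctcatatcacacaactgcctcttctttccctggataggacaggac
Trib2 W6-only region: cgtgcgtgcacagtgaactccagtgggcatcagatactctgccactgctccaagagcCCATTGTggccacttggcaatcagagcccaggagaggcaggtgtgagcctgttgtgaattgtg
Bcl2l14 W6-only region: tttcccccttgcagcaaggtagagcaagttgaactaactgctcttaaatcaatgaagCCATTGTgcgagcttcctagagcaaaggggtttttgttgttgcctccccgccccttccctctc
Trp63 W6-only region: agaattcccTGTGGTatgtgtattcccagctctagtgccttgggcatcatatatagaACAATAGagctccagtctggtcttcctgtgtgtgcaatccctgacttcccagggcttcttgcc

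The second set shows 2 SOX cores that face each other across a short gap, an arrangement found more often in W6-only than in other regions. These are the highest-scoring W6-only regions with such a pair outside exons, in an intron of Dock2 (chr11:34739119-34739238, gap of 6 bp) and upstream of Igf1r (chr7:67944659-67944778, gap of 7 bp). Capitals mark the facing cores ACAAT and ATTGT.
Dock2 W6-only region: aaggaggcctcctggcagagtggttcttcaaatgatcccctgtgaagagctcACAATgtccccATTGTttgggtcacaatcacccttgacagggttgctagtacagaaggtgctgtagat
Igf1r W6-only region: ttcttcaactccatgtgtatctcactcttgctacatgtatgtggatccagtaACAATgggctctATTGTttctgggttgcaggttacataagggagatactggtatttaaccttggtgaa

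The third set holds GATA words in D0-only regions, taken by the same rule near Dcn (chr10:97253198-97253317, intergenic), 1600014C10Rik (chr7:38185451-38185570, within 1 kb of a TSS) and Bbox1 (chr2:110330049-110330168, intergenic), and from an intron of Gata3 itself (chr2:9860247-9860366). Capitals again mark every match to the SOX, AP1, RUNX or GATA words, and the Dcn region also holds an AP1 word beside its last GATA word.
Dcn D0-only region: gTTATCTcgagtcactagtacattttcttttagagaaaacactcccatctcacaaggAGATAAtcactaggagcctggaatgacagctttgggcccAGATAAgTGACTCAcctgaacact
1600014C10Rik D0-only region: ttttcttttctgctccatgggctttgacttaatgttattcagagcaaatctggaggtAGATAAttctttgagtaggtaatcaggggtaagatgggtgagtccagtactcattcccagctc
Bbox1 D0-only region: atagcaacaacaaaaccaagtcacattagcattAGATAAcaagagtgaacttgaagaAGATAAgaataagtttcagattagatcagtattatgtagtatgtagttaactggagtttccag
Gata3 D0-only region: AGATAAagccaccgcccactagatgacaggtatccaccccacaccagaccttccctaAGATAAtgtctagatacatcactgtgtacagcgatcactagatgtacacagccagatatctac

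Of the 85858 regions, 45851 (53.4%) had a peak in both lists. A further 29067 regions, 33.9% of the union, had a peak at W6 alone, and 10940 regions, 12.7%, at D0 alone. Put by list, 80.7% of the 56791 D0 regions still held a peak at W6, and 61.2% of the 74918 W6 regions already held one at D0. The larger W6-only class cannot be read as net opening, since the lists were not cut at the same strength of evidence. The lowest −log10 q-value kept was 14.5 at D0 and 5.74 at W6, although the lowest normalized score was 3 in each. When both lists were held to a −log10 q-value of at least 14.5, the order of the classes turned, with 21234 D0-only and 10214 W6-only regions. With the 57312 highest-scoring peaks of each list the classes were equal in size almost by construction (16325 D0-only and 16339 W6-only). Their content, described next, kept its direction under every one of these settings for the 4 words named above.

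Regions found in 1 list alone were weak. The normalized score had a median of 5.18 in D0-only regions and 5.26 in W6-only regions, against 12.4 at either time in shared regions. Of the D0-only regions, 17.2% scored 10 or more, and 17.4% of the W6-only regions did, compared with 57.8% (D0) and 59.7% (W6) of the shared ones. D0-only regions made up 47 (0.827%) of the top 10% of the D0 list, and W6-only regions 324 (4.32%) of that of the W6 list. Thus the strongest open sites were nearly all common to both times. These scores belong to the lists that set the classes and are a description.

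**Figure D1:**
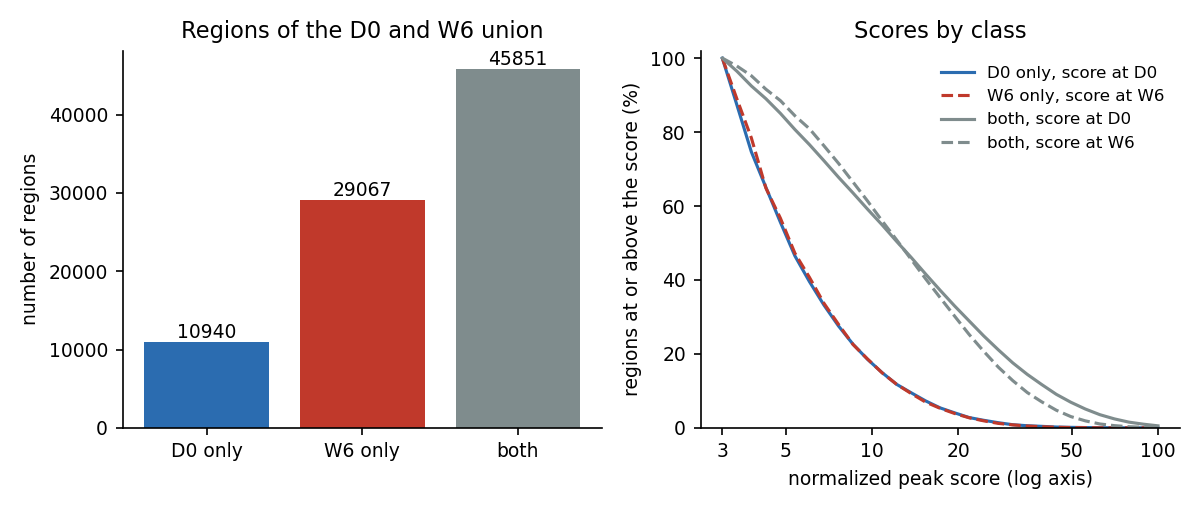
Left, the number of merged regions with a peak at D0 only, at W6 only or at both. Right, the share of each class (vertical axis, %) with a normalized peak score at or above the value on the horizontal log axis; the curves of the D0-only and W6-only classes lie on each other, with medians of 5.18 and 5.26, below those of shared regions.

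The shared and unshared regions lay in different parts of genes, while the D0-only and W6-only classes were alike in this. Of shared regions 29.9% (95% Wilson interval 29.5% to 30.4%) had their centre within 1 kb of a TSS, compared with 6.73% (6.27% to 7.21%) of D0-only and 7.54% (7.25% to 7.85%) of W6-only regions. Introns held 51.1% of the D0-only, 47.4% of the W6-only and 36.6% of the shared regions, and 38.9%, 41.5% and 30.3% of them were intergenic. The difference of the D0-only and W6-only promoter shares depended on the settings, and turned to 11.1% against 5.36% with the common −log10 q-value. Median widths were 423 bp (D0-only), 355 bp (W6-only) and 642 bp (shared). Median GC contents of the central 200 bp were 47.5%, 49% and 52.5%. Across the autosomes the W6-only share ran from 28.4% (chromosome 19) to 37.3% (chromosome 13). The intervals here and below cover counting error only, and regions are not replicates of a condition.

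Between the D0-only and W6-only classes as reported, the 4 DNA words named above differed by more percentage points than the shares by position. With size matched by fold enrichment the promoter shares also came apart, at 12.5% (D0-only) and 5.41% (W6-only). SOX words lay in the central 200 bp of 9.43% of W6-only regions (9.10% to 9.77%), 2.44% of D0-only regions (2.17% to 2.75%) and 3.45% of shared regions (3.29% to 3.63%), a 3.86-fold higher share in the W6-only than in the D0-only class. GATA words showed the opposite, in 21.1% of D0-only (20.4% to 21.9%), 7.92% of W6-only (7.61% to 8.23%) and 8.63% of shared regions. AP1 words were in 24.3% of W6-only regions (23.8% to 24.8%), 15.3% of D0-only and 17.9% of shared regions. RUNX words were in 18.8% of W6-only regions (18.4% to 19.3%), 11.8% of D0-only and 12.6% of shared regions. Over the whole union the shares were 5.35% (SOX), 9.98% (GATA), 19.7% (AP1) and 14.6% (RUNX). In every alternative run, the SOX, AP1 and RUNX shares stayed higher in W6-only regions and the GATA share in D0-only regions, also in the full region and the central 100 bp.

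Because promoters were concentrated among shared regions, the shares were also taken without them. Away from promoters, SOX words were in 9.78% of W6-only, 2.50% of D0-only and 4.18% of shared regions, and GATA words in 8.20%, 21.7% and 11.1%. AP1 words, however, were then nearly as frequent in shared (23.6%, 23.1% to 24.1%) as in W6-only regions (25.2%, 24.7% to 25.8%), and least frequent in D0-only regions (15.7%).

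Further words differed by fewer percentage points between the classes. LHX words (TAATTA) were in 6.37% of D0-only and 4.12% of W6-only regions, TEAD words (ACATTCC) in 5.71% and 4.197%, and GRHL words (AACCNGTT), read by the Grainyhead factors of epithelial barriers, in 3.87% and 2.44%. CEBP words (TTGCNNAA) were more frequent at W6 (12.3% against 9.56%), as were CTCF matches (2.67% against 1.22%). CTCF matches sat in the weakest peaks, in 4.13% of the lowest quintile of W6-only regions by score and 0.258% of the highest quintile. Words of the T-box factors (AGGTGTGA) were in 1.25% of D0-only, 1.56% of W6-only and 1.18% of shared regions.

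The SOX share followed the strength of the W6 peak and the GATA share that of the D0 peak. From the lowest to the highest quintile of W6-only regions by score, SOX words went from 7.09% (6.45% to 7.77%) to 14.3% (13.5% to 15.3%) and AP1 words from 20.1% to 30.8%, while GATA words stayed at 8.36% and 7.81%. From the lowest to the highest quintile of D0-only regions, GATA words went from 17.1% (15.7% to 18.7%) to 27.4% (25.6% to 29.3%), while SOX words stayed at 2.54% and 2.19%. SOX and AP1 words stood together in 2.07% of W6-only regions (1.91% to 2.24%), 0.329% of D0-only and 0.641% of shared regions. At least 1 of the 4 words was in the central 200 bp of 49.0% of W6-only, 42.2% of D0-only and 35.6% of shared regions. In that window most regions of each class thus held none of them.

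An unguided count of 7-base words was led by SOX and GATA words, with no AP1 word among the leading 15 at either end. Among the words present in at least 3% of either class, the largest excess in W6-only regions was that of ACAATGG, in 5.86% of W6-only and 1.45% of D0-only regions (log2 ratio 2.01), followed by ACAATAG (3.88% and 1.03%, log2 ratio 1.91). The largest excess in D0-only regions was that of CTTATCA, in 5.25% of D0-only and 1.20% of W6-only regions (log2 ratio -2.13), followed by AGATAAG (8.54% and 2.05%, log2 ratio -2.06). The first 10 words of the W6 end all contained a SOX core on 1 of the strands, and the 3 of the D0 end with the largest excess GATAA or its complement.

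SOX cores also differed in how they were paired. A single core, ACAAT or ATTGT, was common, in 34.8% of W6-only, 21.7% of D0-only and 19.98% of shared regions. Facing cores, as in the Dock2 and Igf1r sequences above, showed a preferred distance in W6-only regions. With gaps of 5, 6 and 7 bp they were found in 44, 64 and 33 W6-only regions, but in 4 at a gap of 3 bp and 8 at a gap of 9 bp. The same cores placed back to back gave 3 to 16 W6-only regions at any gap from 0 to 10 bp, with no such peak. Across gaps of 5 to 7 bp, facing pairs were in 141 W6-only regions (0.485%, 0.411% to 0.572%), 2 D0-only regions (0.0183%, 0.00501% to 0.0666%) and 23 shared regions (0.0502%, 0.0334% to 0.0753%). Relative to regions with any core, that was 1.39% of W6-only, 0.0843% of D0-only and 0.251% of shared regions. These gaps were chosen after the counts were seen. Of the 141 regions, 94 also had a peak at W2, 92 at W12 and 77 in cultured WT-SOX9 cells, whereas 1 had a peak at W1 and 21 in cultured cells without DOX.

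**Figure D2:**
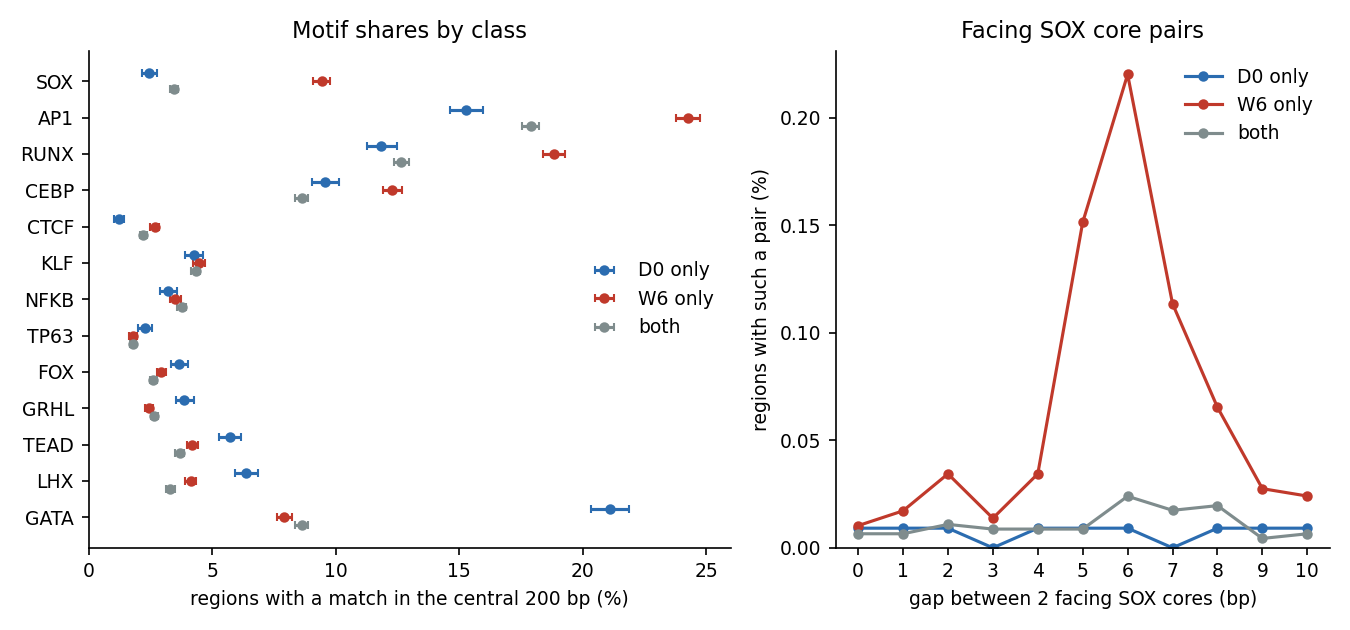
Left, the share of regions with a match to each word in the central 200 bp (%), by class, with 95% Wilson intervals for counting error. Right, the share of regions (%) with 2 SOX cores facing each other, by the gap between them in bp; W6-only regions reach their highest value at a gap of 6 bp (64 regions), where 1 D0-only region held such a pair.

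Lists that the rule did not use placed the regions in time and in culture. W1 and W2 mice were at postnatal days 28 and 35, after 1 and 2 weeks of DOX, and the W12 grafts had 12 weeks of it. D0-only regions were largely still open after 1 week, as 76.8% (76.0% to 77.6%) had a W1 peak, but 28.2% (27.3% to 29.0%) had one at W2 and 33.9% at W12. These D0-only shares depended on the settings and ran from 40.7% to 50.5% at W2 and from 47.7% to 57.4% at W12 in the 4 alternatives run. Those alternatives cut the D0 and W6 lists alone, and the lists of other times and of culture were left whole. A region called D0-only there could thus hold a W6 peak below the cut. With scores of at least 5, a W6-only region could likewise hold a weaker D0 peak. The ranges therefore belong to other sets of regions than the shares as reported. Of W6-only regions, 11.8% (11.4% to 12.1%) had a peak at W1, or 8.04% to 21.8% in the alternatives. Further, 43.6% (43.0% to 44.2%) had a peak at W2 and 58.2% at W12, whose cells came from grafted neonatal skin, or 51.8% to 70.5% and 68.6% to 85.5% in the alternatives. Shared regions were present at W1 in 89.8%, at W2 in 92.4% and at W12 in 95.3%. The commonest course of a D0-only region was a peak at W1 and none at W2 or W12 (4260 regions, 38.9%). Among W6-only regions, 7940 (27.3%) had no peak at W1 and peaks at W2 and W12, 6906 (23.8%) a peak at W12 alone besides W6, and 7949 (27.3%) a peak in no other in vivo list. The last had a median score of 3.92, close to the lowest kept, against 9.71 for those with W2 and W12 peaks.

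Strong peaks were more often found again. In the highest quintile by score, 97.7% of D0-only regions had a W1 peak and 94.0% of W6-only regions a W12 peak, compared with 54.8% and 31.6% in the lowest quintile. Strong D0-only regions often had peaks at later times other than W6. Among the 410 of them with a score of at least 20, 65.9% had a peak at W2 and 64.4% one at W12, with median scores there of 6.86 and 5.99.

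Cultured EpdSCs gave a second view. Per the study's methods these were primary cells of newborn skin, and SOX9 was induced by DOX in the medium. The culture lists are not matched to the skin lists in age or in time with DOX. Of W6-only regions, 33.9% (33.3% to 34.4%) had a peak in cultured cells with wild-type SOX9 (WT-SOX9), compared with 10.6% (10.05% to 11.2%) of D0-only regions. In the 4 alternatives, which left the culture lists whole, the shares were 38.2% to 46.9% and 16.1% to 23.3%. The 2 shares lay closest, at 38.2% and 23.3%, with size matched by fold enrichment. Since 30.3% of W6-only regions also had a peak in cultured cells kept without DOX, the regions present with SOX9 and not without DOX are the narrower measure. They made up 12.6% of W6-only (12.3% to 13.0%), 2.11% of D0-only (1.86% to 2.40%) and 3.53% of shared regions. Peaks without DOX were present in 17.9% of D0-only and 69.2% of shared regions, so that the classes differed in how many regions could gain or lose one. Of regions without such a peak, 18.1% of W6-only (17.6% to 18.7%), 2.57% of D0-only (2.26% to 2.92%) and 11.4% of shared regions (10.9% to 11.98%) had one with SOX9. Of regions with such a peak, 52.4% of D0-only (1023 of 1953, 50.2% to 54.6%), 29.8% of W6-only (2628 of 8806, 28.9% to 30.8%) and 14.2% of shared regions (4509 of 31722, 13.8% to 14.6%) had none with SOX9.

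**Figure D3:**
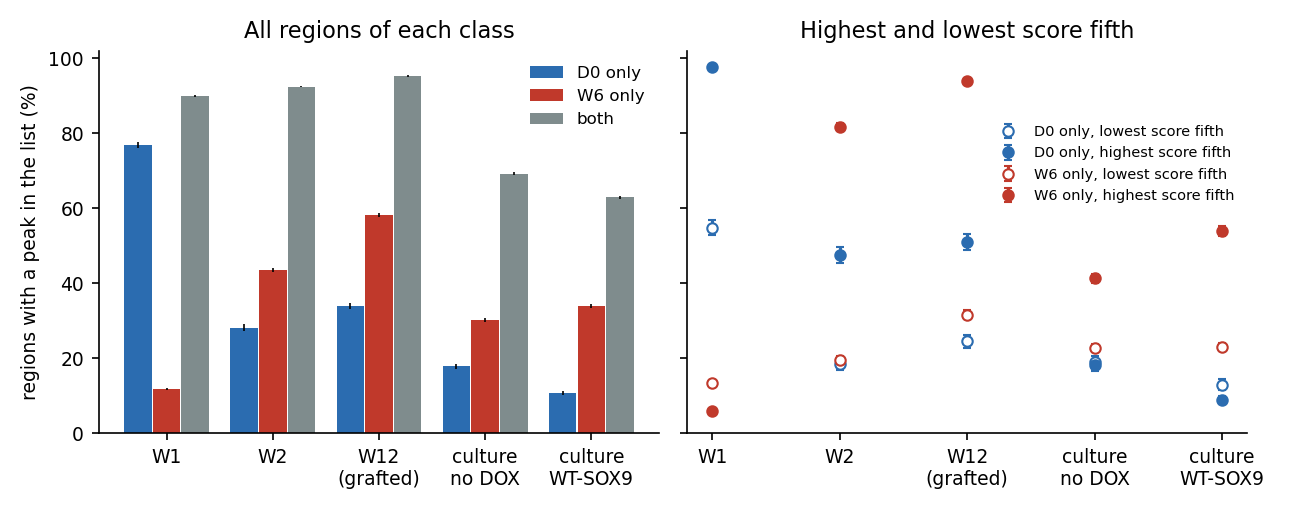
Left, the share of D0-only, W6-only and shared regions (%) with a peak in 5 lists that did not define the classes, with 95% Wilson intervals. Right, the same for the lowest (open circles) and highest (filled circles) quintile of D0-only and W6-only regions by score; 97.7% of the highest quintile of D0-only regions had a W1 peak and 5.8% of the highest quintile of W6-only regions did.

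Among the 45851 shared regions the scores were ranked as percentiles within each list. Spearman's rho between the D0 and W6 scores was 0.689 across these regions, which share genome and peak caller and are not independent. The median region stood 4.23 percentile points higher at W6. Ranks were taken over each whole list, and the many weak W6-only regions fill the low ranks there. At least 25 points higher at W6 were 7756 regions, 16.9% of those shared, and at least 25 points lower were 3482, 7.59%. Between regions that stood higher and those that stood lower, the words split as between W6-only and D0-only regions. SOX words were in 6.58% (6.05% to 7.15%) of the regions that stood higher at W6 and 2.87% (2.37% to 3.48%) of those that stood lower, and GATA words in 7.97% (7.39% to 8.59%) and 19.2% (17.9% to 20.5%). AP1 words were in 23.9% and 18.7%, and RUNX words in 16.3% and 12.3%. Shared regions that moved by less than 25 points held SOX, GATA, AP1 and RUNX words in 2.81%, 7.71%, 16.5% and 11.9%. Regions that stood lower thus had no lower SOX, AP1 or RUNX share than these, and GATA alone set them apart clearly. In the other lists, regions that stood higher at W6 had a W1 peak in 68.4%, and those that stood lower in 96.6%.

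**Figure D4:**
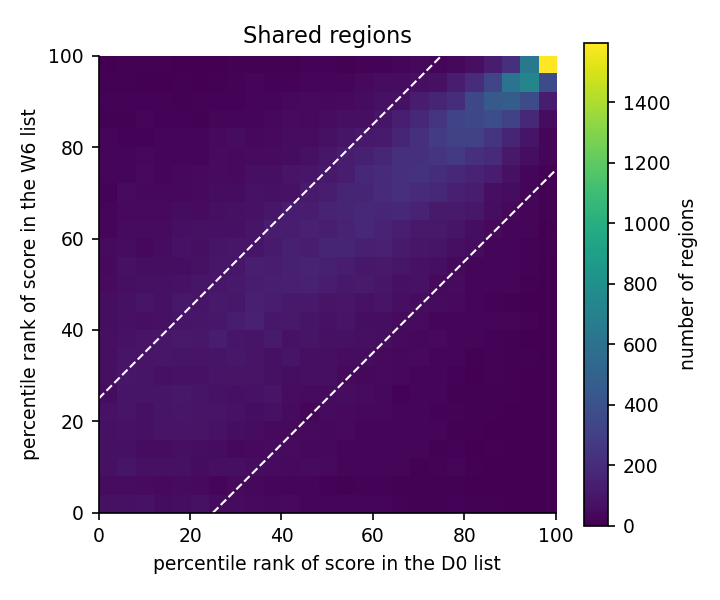
Shared regions by percentile rank of their score in the D0 list (horizontal) and in the W6 list (vertical), with colour for the number of regions in each square of 4 by 4 points. Dashed lines mark a change of 25 points; 7756 regions lie on or above the upper line and 3482 on or below the lower.

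The 12 D0-only regions of highest score ran from 52.8 to 99.6. The first was in an intron of 1600014C10Rik (chr7:38187770-38188209), with a score of 99.6 at D0, 124 at W1 and no peak at W2, W6 or W12. A second region of that gene lay 802 bp upstream of a TSS (chr7:38185228-38185710), with 56.3 (D0), 56.5 (W1) and 6.76 (W2). Their fold enrichments over local background, 8.19 and 5.94, were below those of the other 10 regions, which started at 11.3. A region 19310 bp upstream of Kcnt2, a potassium channel gene (chr1:140226539-140227156), scored 76.6 (D0), 54.9 (W1) and 13.8 (W2). Near Naa11 (chr5:97334693-97335281) the scores were 66.9 (D0), 50.2 (W1), 5.85 (W2) and 21.6 (W12). All 12 had a W1 peak, 10 a W2 peak and 8 a W12 peak. Thus a region counted as D0-only can hold weaker peaks at later times other than W6.

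Others of the 12 lay 19790 bp upstream of Cd9, which codes for a tetraspanin of the cell surface (59.6 (D0), 47.8 (W1), no peak (W2) and 9.06 (W12)), 24428 bp upstream of Bbox1 (55.9 at D0) and in an intron of Pde4d, a cAMP phosphodiesterase gene (55.7 at D0). A group of 5 lay over 100 kb from the nearest coding TSS, those near Dcn, Lsamp, Efnb2, Adcyap1 and Nrp1, for which the gene name is only a landmark. In cultured cells 1 of the 12 had a peak without DOX, the Naa11 region.

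The 12 W6-only regions of highest score ran from 53.5 to 79.6, and their course was uniform. All 12 had peaks at W2 (29.3 to 117) and at W12 (29.1 to 55.0), 11 had one in cultured WT-SOX9 cells, 6 in cultured cells without DOX, and 1 at W1 (Fgd4, score 3.87). The first, between genes near E130114P18Rik (chr4:97465715-97466548), scored 117 (W2), 79.6 (W6), 47.2 (W12), 26.9 without DOX in culture and 108 with SOX9 in culture. The region near Efna5, whose sequence is shown above, scored 75.1 (W2), 76.3 (W6) and 55.0 (W12), and its SOX word lay 4 bp from the summit of the peak. The region 17017 bp upstream of Cyp7a1, the bile acid synthesis enzyme (chr4:6292318-6292978), scored 29.3 (W2), 68.4 (W6) and 43.7 (W12). The region 132789 bp downstream of the TSS of Klf5, a keratinocyte transcription factor (chr14:99431610-99432275), scored 59.3 at W2 and 59.9 at W6 and had no peak in either culture list.

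A single one of the 12 was a promoter, 91 bp upstream of a TSS of Fgd4, an activator of the GTPase CDC42 (chr16:16560041-16560579), with scores of 3.87 (W1), 65.4 (W2), 55.6 (W6) and 33.8 (W12). The others lay near Rgma (62.3 at W6), Spata6 within an intron of Agbl4 (62.1), Arrdc3 (59.9), Erich3 (58.3), Zbtb18 (57.3), Gmds (56.2) and Trib2 (53.5), and 8 of the 12 were over 100 kb from the nearest coding TSS. SOX words lay in the central 200 bp of 2 of them and AP1 words in 4.

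Among shared regions with a score of at least 10 in either list, the largest differences in rank had the same courses. The 8 that stood highest at W6 relative to D0 had D0 scores from 3.12 to 3.30, no peak at W1, and scores of 17.9 to 139 at W2, 34.6 to 55.4 at W6 and 18.9 to 55.2 at W12. In an intron of Jmy, whose product acts in p53 responses and actin assembly (chr13:93488449-93489038), the score was 3.30 (D0), 139 (W2), 55.4 (W6) and 55.2 (W12). The others lay near Aldoart1, Kbtbd8, Aasdhppt, Gpr155, Ptprn2, Fam213a and Tmem45b. The 8 that stood lowest had scores of 29.8 to 67.8 at D0, 22.3 to 54.3 at W1, 5.85 to 19.7 at W2 and 3.08 to 3.58 at W6. The 7 of them with a W12 peak scored 8.22 to 19.3 there, above their W6 scores. They lay near Nr2f2 (chr7:70606461-70606990, 67.8 at D0 and 3.58 at W6), Itgb6 within an intron of Rbms1 (57.3 and 3.26), Olfr441 (56.3 and 3.58), Atp10a (52.9 and 3.26), in an intron of the DNA methyltransferase gene Dnmt3a (43.7 and 3.38), in Ntrk2, near Msx2 and in Wwc2.

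Regions were next assigned to the coding gene with the nearest TSS within 100 kb, which placed 71482 of them at 16172 genes. Of these regions 11.97% were D0-only, 31.9% W6-only and 56.2% shared, the shares against which each gene list is to be read. Of the genes, 4965 had a D0-only region, 9284 a W6-only region and 3310 had both kinds. Limch1 had the most D0-only regions, 14, with 1 W6-only and 2 shared ones. Satb1, which codes for a chromatin organizer of epidermal differentiation, had 10 D0-only regions and none at W6 alone, and Pdzrn4 had 9 and 1. Others with many were Asap1 (11 D0-only, 7 W6-only), Foxn3 (10 and 5), Auts2 (10 and 13), Adgrv1 (9 and 6) and Pde4d (10 and 25). The most W6-only regions lay at Pde4b (26, with 4 D0-only), Pde4d (25), Ank3 (24, with 1 D0-only), Foxp1 (23, with 6), Pdzrn3 (23, with 1), Ppm1h (22, with 3), Etl4 (21, with 5) and Kalrn (21, with none). Long genes with wide flanks take up many regions by this rule.

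Of 15 gene lists, 2 had a W6-only share whose 95% Wilson interval lay above the 31.9% of all assigned regions, the RUNX factors and the HFSC and root sheath genes. A group of 3 lay below it, the basal structural genes, AP1 subunits and inflammation genes, and the intervals of the other 10 covered it. In the 5 alternatives run, the gap to the share over all stayed outside its counting error in 5 for the HFSC and root sheath genes and in 4 for the RUNX factors, but in 3 for the basal structural genes, 2 for AP1 subunits and 1 for inflammation genes. The intervals cover counting error only, and regions at 1 gene are not independent. The gene lists were chosen with earlier results of these data known. A list above or below the share over all is therefore a description and no independent support. At the 4 RUNX genes, 31 of 57 regions were W6-only (54.4%, 41.6% to 66.6%), 6 D0-only and 20 shared. RUNX factors act in follicle stem cells and in hair growth. Runx1 held 29 of the 57 regions, with 12 W6-only and 4 D0-only ones. Runx3 had 8 and none, Runx2 7 and 2, and Cbfb, their common partner, 4 and none. A region 40683 bp upstream of Runx3 (chr4:135079675-135080262) had no peak at D0 or W1 and scored 19.3 (W2), 34.8 (W6), 19.3 (W12) and 36.5 in cultured WT-SOX9 cells, but 26.7 in culture without DOX as well. A shared Runx1 region, 77939 bp upstream (chr16:92903511-92904665), scored 16.7 (D0), 7.93 (W1), 41.5 (W2) and 36.2 (W6). The Runx1 promoter region went the other way, from 43.1 at D0 to 28.1 at W6. With the gene body and 10 kb on either side in place of the nearest TSS, the W6-only share of the RUNX list was 39.7%, and the 30.6% over all lay within its error of 12.9 percentage points.

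At genes of HFSCs and the outer root sheath, 59 of 123 regions were W6-only (48.0%, 39.3% to 56.7%), 12 D0-only (9.76%) and 52 shared. Cd200, a surface protein of HFSCs, had 12 W6-only and no D0-only regions, Lgr6, a stem cell receptor of the upper follicle, 11 and 3, and Cd34, the HFSC surface marker that the sort excluded, 7 and none. A region 43407 bp upstream of Cd34 (chr1:194895125-194895698), with a SOX word, had no peak at D0 or W1 and scored 32.6 (W2), 26.3 (W6) and 3.39 (W12). Krt17, a keratin of the root sheath, had 3 regions, all shared. The promoter region of Krt6a, a keratin of the follicle and of wounds, was shared but stood 62.5 points higher at W6 (5.44 (D0), no peak (W1), 15.6 (W2), 26.8 (W6) and 24.1 (W12)). The Krt15 promoter region went the other way, from 16.1 at D0 to 5.49 at W6, although Krt15 is a keratin of the bulge.

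At HFSC transcription factor genes, 104 of 284 regions were W6-only (36.6%, an interval of 31.2% to 42.4% that covers the share over all) and 34 D0-only (11.97%). Foxp1 had 23 W6-only regions, Barx2 15 and Foxc1, which maintains quiescence of HFSCs, 12, with 6, 2 and 1 D0-only ones. Nfib had 6 of each. A W6-only region with a SOX word, 93834 bp from the TSS of Foxc1 in an intron of Gmds (chr13:31900163-31900770), scored 42.0 (W2), 23.0 (W6) and 23.4 (W12), and the Foxc1 promoter region 7.67 at D0 and 17.9 at W6. With the gene body in place of the nearest TSS the W6-only share of this list was 31.004%, close to the 30.6% over all.

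Sox9 itself had 7 W6-only, 8 shared and no D0-only regions. The 3 exons of the gene served as a check on the transgene, whose coding sequence lacks introns. A peak over the promoter and the first exon scored 13.8 at D0 (a second peak there scored 8.94) and 15.9 at W6, and a peak within the last exon 13.5 at D0 and 9.22 at W6. The middle exon (chr11:112783809-112784062) held no peak at either time. Since both exonic peaks were already in the D0 list, the transgene's copy could not be told from the native gene here. A shared region 42115 bp downstream of the Sox9 TSS (chr11:112824090-112824588) scored 3.46 (D0), 10.7 (W2), 27.6 (W6) and 11.6 (W12), a difference of 83.0 percentile points between D0 and W6. Another, 14606 bp upstream and with a SOX word (chr11:112767000-112768235), scored 3.67 at D0 and 16.0 at W6.

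Genes of epidermal identity held both kinds of region. At the 18 epidermal transcription factor genes, 36 of 293 regions were D0-only (12.3%) and 79 W6-only (26.96%, or 18.8% by gene body). Grhl3, which drives barrier formation, had 7 D0-only and 2 W6-only regions, while Cebpb had 2 and 13, Prdm1 1 and 11, Maf none and 10, and all 6 regions of Ovol1 were shared. Gata3 and Trp63 are named for their roles, after their values were seen. Gata3 had 4 D0-only regions, 1 W6-only and 8 shared. Its intronic D0-only region (chr2:9859982-9860625), printed above, scored 36.7 (D0), 44.0 (W1), 14.2 (W2) and 3.29 (W12), and a shared region 52717 bp downstream of the TSS with a GATA word (chr2:9825590-9826175) scored 22.5 at D0 and 3.83 at W6. The Gata3 promoter region, in contrast, scored 26.8 at D0 and 31.1 at W6. Trp63 had 5 D0-only, 9 W6-only and 18 shared regions. Its W6-only intronic region with SOX, RUNX and GATA words (chr16:25844449-25844905) scored 32.6 (W2), 32.3 (W6) and 14.8 (W12), and a shared one 16796 bp upstream (chr16:25666608-25667326) 5.74 (D0), 51.8 (W2) and 43.8 (W6). The Trp63 promoter region went the other way, from 20.3 at D0 to 10.2 at W6.

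Differentiation genes had the highest D0-only share of the 15 lists, 21 of 99 regions (21.2%), against 11.97% over all assigned regions. A further 29 were W6-only (29.3%). The D0-only shares of the WNT and hair bud (18.1%), EGFR (17.4%) and hedgehog genes (17.1%) came next. The D0-only shares of the lists were not rerun in the alternatives and carry no interval, so that their order is a description. Tgm3, a transglutaminase that crosslinks the cornified envelope, had 7 D0-only regions and 1 W6-only, and 6 of its 10 shared regions stood at least 25 points lower at W6. Its intronic D0-only region with a GATA word (chr2:130046737-130047782) scored 24.1 (D0), 33.6 (W1), 7.46 (W2) and 4.97 (W12), and a shared one 7941 bp upstream 22.4 at D0 and 3.26 at W6. Krt10, the first keratin of suprabasal cells, had 4 D0-only regions and 1 W6-only, the strongest 14549 bp upstream (9.76 (D0), 20.6 (W1), 6.47 (W2) and 3.10 (W12)). Abca12 and Casp14 had more W6-only regions, 8 and 4 against 1 and none, and all 6 regions of Krtdap were shared.

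Of 167 regions at basal structural genes 62.3% were shared, against 56.2% over all assigned regions, 26 were D0-only (15.6%) and 37 W6-only (22.2%, 16.5% to 29.04%). By gene body the W6-only share was 25.7%, within its error of the 30.6% over all. Lama3 had 12 W6-only and 3 D0-only regions, and Itga6, the CD49f of the sort, 2 and 5, while all 6 regions of Itga3 were shared. Krt14, whose promoter drives the activator rtTA, had 2 W6-only and no D0-only regions, the stronger 11601 bp upstream (chr11:100218792-100219505, with 35.2 at W2 and 17.2 at W6).

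Signalling genes split within each pathway. At WNT and hair bud genes 39 of 216 regions were D0-only (18.1%) and 65 W6-only (30.1%, or 20.9% by gene body). Bmp4 had 6 D0-only regions and none at W6 alone, and its promoter region (chr14:46390214-46391130) scored 45.9 (D0), 38.4 (W1), 11.5 (W2), 6.41 (W6) and 15.2 (W12). Wnt3 likewise had 6 and none. Fzd7, a WNT receptor gene, had 14 W6-only and no D0-only regions, and a shared region 18182 bp upstream scored 3.62 (D0), 25.9 (W2), 29.0 (W6) and 25.8 (W12). Ctnnb1, the gene of β-catenin, had 8 W6-only and no D0-only regions, of which 1, with a SOX word and centred 811 bp upstream of a TSS (chr9:120932313-120932864), scored 30.1 (W2), 29.8 (W6), 15.5 (W12) and 20.8 in cultured WT-SOX9 cells. All 10 regions of Wnt10a were shared.

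At hedgehog genes, whose pathway drives basal cell carcinoma, 20 of 117 regions were D0-only (17.1%) and 35 W6-only (29.9%, near the 31.9% over all). By gene body the W6-only share was 17.9%, against 30.6% over all. Gli2, the main transcriptional activator of the pathway, had 11 W6-only and 1 D0-only regions, and Boc, a co-receptor gene, 5 and 3. Cdon, another co-receptor gene, had 7 D0-only and 1 W6-only. The strongest D0-only Cdon region (chr9:35444124-35444870) scored 19.5 (D0), 7.60 (W1), 11.7 (W2) and 9.97 (W12). NOTCH genes had 20 D0-only and 42 W6-only of 148 regions. Maml2, a NOTCH co-activator, had 10 W6-only and 1 D0-only, including an intronic region (chr9:13664255-13664876) with 37.4 (W2), 39.3 (W6) and 38.5 (W12), and Hes1, a NOTCH target, 8 and 3. EGFR genes had 26 D0-only and 38 W6-only of 149 regions. Epgn and Lrig1 had 6 D0-only regions each, with 2 and 5 W6-only, Egfr 5 and 9, and Areg 5 and 8, while the 5 regions of Erbb3 and the 3 of Erbb2 were shared.

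Of 95 regions at AP1 subunit genes 67.4% were shared, against the same 56.2% over all, 11 D0-only and 20 W6-only (21.1%, 14.1% to 30.3%), or 19.7% W6-only against 29.1% over all, within its error, with scores of at least 5. Batf had 5 W6-only and 1 D0-only, Fos 5 and none, Fosl2 4 and 5, and the regions of Junb (3) and Fosl1 (2) were all shared. Inflammation genes had 146 shared, 23 D0-only and 54 W6-only regions (24.2%, 19.1% to 30.2%), or 26.98% W6-only against 29.1% over all with scores of at least 5. Il33 had 9 W6-only and 1 D0-only regions, Nfkb1 7 and 2, and Nfkbiz 5 and 3, and both regions of Krt16 were shared. The promoter regions of S100a8 and S100a9, alarmins of stressed keratinocytes and myeloid cells, were W6-only (17.9 and 16.3) and had peaks at W2 (13.5 and 5.85) but none at W1. They were named after their values were seen. Mesenchymal and invasion genes had 15 D0-only, 31 W6-only and 64 shared regions, led by Tnc (6 W6-only and 1 D0-only) and Tgfb2 (3 and 5). Chromatin remodeller genes had 6, 16 and 34, led by Arid1b (4 D0-only) and Crebbp (4 W6-only), with all 4 regions of Smarcd2 shared. Housekeeping genes had 2 D0-only, 11 W6-only and 28 shared regions, and the 3 regions each of Ppia and Pgk1 were all shared.

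**Figure D5:**
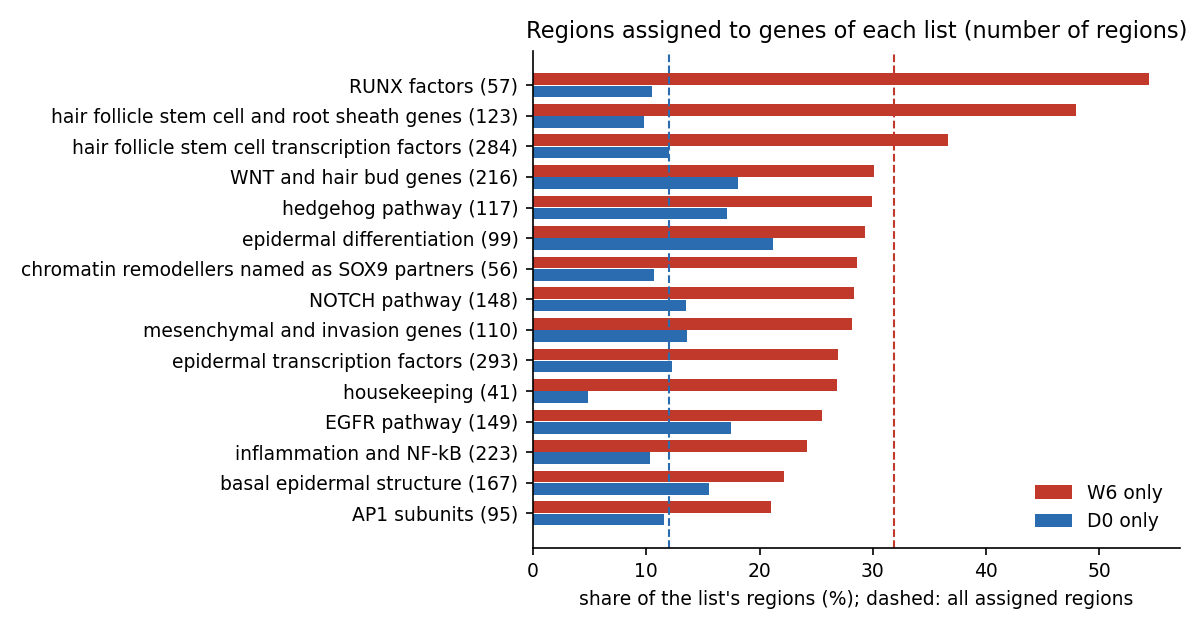
Share of regions assigned to the genes of each list (%) that were W6-only (red) or D0-only (blue), with the number of regions of the list in brackets. Dashed lines give the shares over all assigned regions, 31.9% and 11.97%; the RUNX list and both follicle lists lie to the right of the red line, for HFSC transcription factors by less than the counting error.

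Promoter peaks of cell type markers were compared with the sort. All 7 basal epidermal markers had one at D0 and 6 at W6, the missing one being Ly6a (9.66 at D0), although the sort selected Ly6A-high cells at both times. Among 7 HFSC markers, 5 had one at D0 and all 7 at W6, where Cd34 scored 5.90 and Lgr5 5.73. Of the 5, Lhx2 (21.1 and 12.9), Krt15 (16.1 and 5.49) and Nfatc1 (11.7 and 10.7) scored lower at W6. Tbx1 (6.97 and 8.57) and Sox9 (13.8 and 15.9) scored higher. The W6 list reached down to weaker evidence than the D0 list, and the part of this in the Cd34 and Lgr5 peaks was not tested. Of 8 haematopoietic markers none had a promoter peak at D0 and 1, Coro1a, had one of 3.17 at W6, while Ptprc and Cd3e had none. Endothelial markers had 1 of 6 at D0 and 2 of 6 at W6, with none at Pecam1 and Cdh5. Fibroblast markers had 2 of 6 at both times, Pdgfra (9.23 and 13.3) and Col1a1 (4.62 and 7.37), with none at Col3a1 and Dcn. Melanocyte markers had 3 of 6 at both times with none at Tyr and Mlana, and Merkel cell markers 3 of 4 with none at Krt20. The summed promoter scores moved from 117 to 78.9 (basal), 69.6 to 65.2 (HFSC), 137 to 99.5 (melanocyte), 81.3 to 65.4 (Merkel), 13.8 to 20.7 (fibroblast), 4.56 to 12.9 (endothelial) and none to 3.17 (haematopoietic). Scores were also lower at W6 at 8 of 11 housekeeping genes, whose sum moved from 368 to 303, and at 8055 of 13731 shared promoter regions, whose median moved from 19.2 to 18.2. The markers' part in the differences between the lists was not tested.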

How the data were processed

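ATAC-seq peak lists of sorted mouse EpdSCs were used as deposited, 1 list for D0 and 1 for W6, with the W1, W2, W12 and 2 culture lists (no DOX, WT-SOX9) for reference. The authors mapped the reads with the PEPATAC pipeline to GRCm38, as their methods state, merged the BAM files of both replicates, called peaks with MACS2 keeping duplicates, normalized the peaks for depth and kept those of at least 3. The submitters' processing notes name MACS2 2.1.1, Bowtie2 2.2.9, Picard 2.3.0, SAMtools 1.9 and deepTools 2.5.4. Each deposited peak gives a normalized score, a fold enrichment over local background, a −log10 q-value and a summit offset in bp, all made by the authors with MACS2. The column meanings follow the MACS2 format and are not stated in the files. The scores look like −log10 p-values scaled to a common total per list, which is inferred from their sums. Read depth is unknown, and lists of other culture conditions were not used here.

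Peaks off chromosomes 1 to 19, X and Y were left out (22 at D0, 28 at W6), and the rest (57312 and 75928) were merged by an overlap of at least 1 bp. A merged region took its highest score in each list, and ranks were percentiles within a list. Features came from GENCODE M21 on GRCm38.p6, with promoters within 1 kb of a TSS, and 18 words were searched on both strands in the central 200 bp. Regions were assigned to the nearest coding TSS within 100 kb. The text names the 12 highest-scoring regions of each unshared class, the 8 shared regions with the largest rise and fall in rank among those scoring at least 10, the 8 genes with most regions, 2 to 4 genes per list with the most unshared regions, those with all regions shared, and Sox9. A few items that this rule would name are not reported here. The members and gene lists were chosen with earlier results of these data known. The 95% Wilson intervals of the list shares, the culture shares by starting state and the promoter scores of reference sets were added after the values were seen. The merging, ranking, overlap and word search were checked on simulated data. Python 3.11.15, pandas 2.3.3, NumPy 2.4.6, SciPy 1.17.1, pysam 0.24.0 and Matplotlib 3.10.9 were used. Alternatives changed the score minimum, list size, evidence minimum, overlap, merging gap, search window, promoter distance, gene assignment and the measure ranked.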

Additional observations from a re-analysis of the deposited data

How the results depend on the processing

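The size of the classes depended on where the lists were cut. The W6-only class exceeded the D0-only class by 18127 regions as reported, by 10887 with scores of at least 5, by 14 (16339 W6-only regions) with the 57312 highest-scoring peaks of each list and by 153 (18333 D0-only and 18486 W6-only) with size matched by fold enrichment, where near equality follows from the equal sizes. With a common −log10 q-value minimum the difference was -11020 (21234 D0-only and 10214 W6-only), as only the W6 list lost peaks. An overlap of 50% of the shorter peak or a merging gap of 200 bp kept the class sizes within 1.5 times those reported.

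The W6-only minus D0-only differences in word shares kept their direction in all 6 alternatives. In the order of matched size, common q-value minimum and matched size by fold enrichment, they were 8.38, 9.52 and 7.92 percentage points for SOX, 11.6, 13.2 and 11.01 for AP1 and -10.7, -9.08 and -9.11 for GATA. In the full region they were 8.23 (SOX), -19.1 (GATA) and 4.81 (RUNX), and in the central 100 bp 3.93 (SOX), 5.74 (AP1), -8.20 (GATA) and 4.06 (RUNX).

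Promoter shares of the D0-only, W6-only and shared classes were 9.23%, 6.09% and 32.0% with matched size, 11.1%, 5.36% and 34.1% with the common q-value minimum, 12.5%, 5.41% and 31.7% with size matched by fold enrichment, and 20.5%, 19.3% and 41.1% with promoters within 5 kb. With scores of at least 5, W6-only and shared regions gave 8.29% and 34.7%. For the shares in other lists, the settings cut the D0 and W6 lists alone and left the other lists whole. D0-only regions with a W1 peak made up 90.2% (score of at least 5), 77.9% (matched size), 79.1% (q-value) and 79.6% (fold enrichment). In the same order, W6-only regions with a W2 peak made up 66.9%, 59.0%, 70.5% and 51.8%, and those with a W12 peak 80.4%, 74.7%, 85.5% and 68.6%. The number of gene lists above the share of all assigned regions, with no regard to error, was 3 as reported and 5, 5 and 6 in the first 3 of these.

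The W6-only share over all assigned regions was itself 20.4% with matched size, 13.5% with the common q-value minimum, 22.3% with size matched by fold enrichment and 30.6% by gene body. Against these, the share of HFSC and root sheath genes was 35.4%, 25.6%, 36.6% and 46.3%, that of HFSC factors 24.1%, 19.3%, 23.4% and 31.004%, and that of the RUNX list 43.5%, 39.5%, 46.9% and 39.7%. The gap of HFSC factors to the share over all exceeded its counting error with the q-value minimum alone, and that of the RUNX list in each setting but gene body. By gene body the AP1 (14.04%), hedgehog (17.9%), WNT (20.9%) and epidermal factor (18.8%) lists lay below the 30.6% over all by more than their error. Of the lists below the share over all as reported, inflammation genes came within error at scores of at least 5 (26.98% against 29.1%), matched size (18.0%), the q-value minimum (10.6%) and gene body (23.5%), AP1 subunits at the first 3 of these (19.7%, 12.8% and 8.54%), and basal genes with the q-value minimum (12.2%) and by gene body (25.7%). With fold enrichment the epidermal factor, EGFR and housekeeping lists also lay below by more than their error. Of the comparisons that carry the report, 30 moved by less than their error (for counts, by less than 1.5 times), 53 by more and 1 turned. Of the others, 36 moved by less and 64 by more. Where the lists' construction does not give the cause, the cause was not tested. No paired analysis was possible because the replicates were pooled before peaks were called, and leaving out a replicate could not be done for the same reason. Read depth, the spread between mice and the age of the mice limit every difference between the lists.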
